A study of Mus musculus with 8 samples.

Results

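The receptors by which hepatocytes sense drugs, pollutants, bile acids, oxysterols and other lipids were followed in TrxR1/Gsr-null liver and wild-type (WT) liver. The set held 10 genes, chosen by their symbols. All 20 probe sets that the platform annotation pairs with exactly 1 of them were taken, out of 22690 probe sets in the table. All 10 genes, of 12393 with a probe set of their own, had at least 1. Of these genes 4 had 1 probe set, 4 had 2, and Hnf4a and Nr5a2 had 4 each.

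Livers of 4 TrxR1/Gsr-null and 4 WT female mice were profiled, each on 1 Affymetrix 3′ expression array. All 8 mice were 4 weeks old, carry the label C57BL/6J for strain or background, received no treatment that the labels record, and were sampled in the late morning. TrxR1, encoded by Txnrd1, reduces thioredoxin in the cytosol and Gsr reduces glutathione, both with electrons from NADPH. The title of the series names the response of the transcription factor Nrf2, which induces antioxidant and detoxification genes. The labels do not say which parts of either gene were deleted, in which cells, or by what driver. Values are log2 expression after GCRMA, a background correction and normalization for such arrays, and every difference is TrxR1/Gsr-null minus WT on that log2 scale. The number of arrays, 4 a group, limits the precision.

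Most of these proteins are nuclear receptors, transcription factors that a small lipophilic ligand switches on. PXR (Nr1i2) and CAR (Nr1i3) answer to drugs and other foreign compounds and induce cytochromes P450, conjugating enzymes and transporters. LXR alpha (Nr1h3) senses oxysterols and drives lipid synthesis and cholesterol export, while FXR (Nr1h4) senses bile acids and induces SHP (Nr0b2), a receptor without a DNA-binding domain that represses bile acid synthesis. These 4 DNA-binding receptors pair with RXR alpha (Rxra). HNF4 alpha (Hnf4a) and LRH-1 (Nr5a2) keep hepatocyte genes and bile acid synthesis active. AhR, which binds dioxins and other planar aromatic compounds, belongs with its partner Arnt to another family, the basic helix-loop-helix PAS proteins.

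The upstream sequences of 3 receptor genes are shown because Nr1h4 and Rxra had the smallest p-values among the genes tested and Nr0b2 varied most between livers. Each is the 250 bases before a start site in RefSeq's GRCm38.p6 annotation, written 5′ to 3′ on the gene's strand. Capitals mark every match, on either strand, to 4 motifs: the nuclear receptor half-site AGGTCA, the LRH-1 core TCAAGG, the antioxidant response element core TGACNNNGC that Nrf2 binds, and GCGTG, the core bound by AhR with Arnt.
Nr1h4, chr10:89506659-89506908, minus strand: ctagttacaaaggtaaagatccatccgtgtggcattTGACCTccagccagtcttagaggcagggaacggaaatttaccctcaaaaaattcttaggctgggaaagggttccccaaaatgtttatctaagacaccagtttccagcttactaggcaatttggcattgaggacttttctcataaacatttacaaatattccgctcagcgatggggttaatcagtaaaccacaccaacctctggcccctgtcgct
Rxra, chr2:27709042-27709291, plus strand: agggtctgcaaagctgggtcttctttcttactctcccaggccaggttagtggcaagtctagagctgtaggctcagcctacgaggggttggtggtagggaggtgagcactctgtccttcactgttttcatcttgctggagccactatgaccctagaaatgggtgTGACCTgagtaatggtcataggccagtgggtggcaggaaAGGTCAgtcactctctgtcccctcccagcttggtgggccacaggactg
Nr0b2, chr4:133553126-133553375, plus strand: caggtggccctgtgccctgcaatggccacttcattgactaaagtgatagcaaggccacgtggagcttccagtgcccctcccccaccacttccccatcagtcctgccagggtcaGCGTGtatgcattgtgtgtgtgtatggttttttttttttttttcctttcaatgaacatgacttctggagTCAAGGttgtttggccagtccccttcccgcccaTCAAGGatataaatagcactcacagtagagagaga

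Nr1h4 held 1 half-site, on the opposite strand, 214 bases before its start. The Rxra window shown, the downstream one of 2, held a pair of half-sites, and its other window held no match. Nr0b2 held 2 copies of the LRH-1 core, 68 and 35 bases before its start, and 1 copy of GCGTG. Over 13 such windows of 9 of the genes, the half-site stood in 3, against 14% of all 32851 windows of that length. The LRH-1 core stood in 1 of the 13 and in 12.5% of all. The antioxidant core stood in 1, that of Arnt, and in 10.2% of all, and GCGTG in 3 and in 28.2% of all. A match is a string of letters and not a bound site.

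None of the receptor genes passed the test between TrxR1/Gsr-null and WT liver. Of the 10 genes, 9 passed the filter on low values and none of these 9 was called higher or lower by limma at a Benjamini-Hochberg adjusted p below 0.05. Over all 7534 genes tested, 6.62% were called, 4.47% higher and 2.15% lower. At an unadjusted p below 0.05 there were 2 of 9 receptor genes, Rxra and Nr1h4, both lower in TrxR1/Gsr-null liver, against 22.9% of all genes, 7.92% of all being lower. None of the 16 receptor probe sets above the filter was called either, beside 5.5% of 13776 probe sets. The differences of the 9 genes had a median of -0.11, beside 0.10 over all genes tested. Of the 9 differences 4 were positive and 5 negative, where 60.1% of all genes were positive. The differences of 6 receptor genes had a 95% interval within 1 log2 unit of 0 on both sides. The intervals of Rxra, Nr1h3 and Nr0b2 reached past it. In simulated data of the same size, 44.2% of genes changed by 1 log2 unit and 3.28% of those changed by 0.5 were called, so a missing call does not show that a receptor was the same in both groups.

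**Figure D1:**
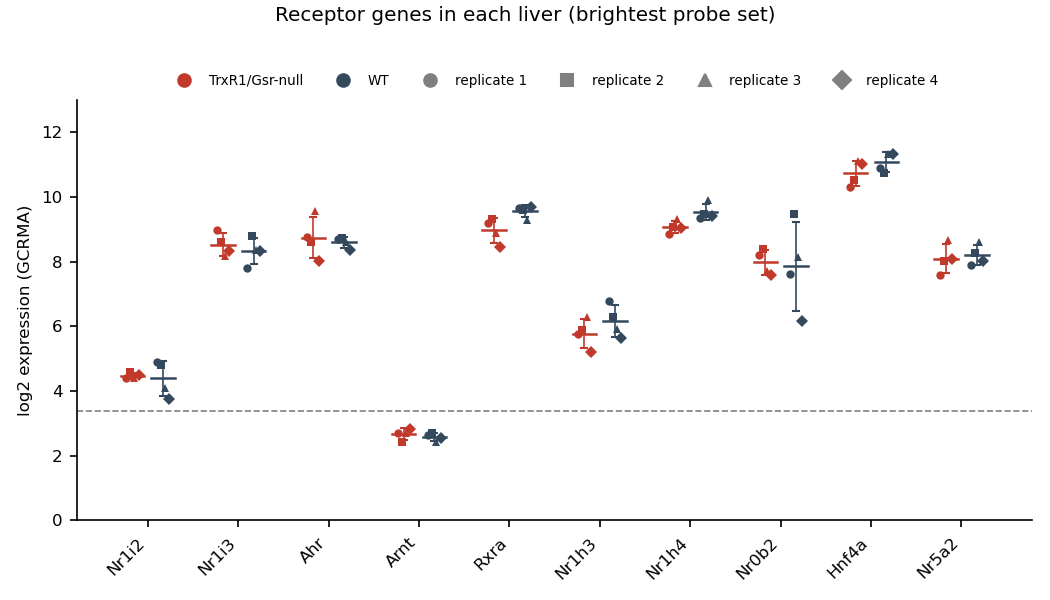
Log2 expression (vertical axis) of the brightest probe set of each of the 10 receptor genes in the 4 TrxR1/Gsr-null livers (red) and the 4 WT livers (dark blue), with replicates 1 to 4 as circle, square, triangle and diamond, bars at the group mean and whiskers of 1 SD. The dashed line is the low-value limit of 3.38; Arnt lies below it in all livers, and only Nr1h4 shows no overlap between the groups.

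Some arrays stood apart. The middle 50% of values spanned 3.97 and 3.74 log2 units on WT replicates 3 and 4, narrower than the 4.31 to 4.44 of the rest, and replicates 1 and 2 differed from replicates 3 and 4 across both genotypes. Both Gsr probe sets read below WT in all 4 TrxR1/Gsr-null livers, with differences of -1.17 and -1.15. One Txnrd1 probe set read 11.65 to 12.07 in TrxR1/Gsr-null livers and 9.56 to 9.93 in WT livers, and the others were near background. Whether these probes lie in the deleted parts is not stated, so they do not check the labels. The summed linear signal of 5 hepatocyte markers lay between 15.67 and 15.98 in TrxR1/Gsr-null livers and between 16.07 and 16.28 in WT livers as log2, without overlap, though none of the 5 was called. That of 7 Kupffer cell markers averaged 12.28 in TrxR1/Gsr-null livers, at most 12.53, and 12.60 in WT livers, at least 12.29. That of 7 endothelial markers ran from 10.66 to 11.05 in TrxR1/Gsr-null livers and from 10.77 to 11.10 in WT livers, and that of 6 stellate cell markers from 9.42 to 10.46 in TrxR1/Gsr-null livers and from 9.80 to 10.51 in WT livers. Of 5 bile duct markers 4 averaged below the low-value limit, and the sum ran from 5.24 to 5.61 in TrxR1/Gsr-null livers and from 5.28 to 5.82 in WT livers. Epcam, the one above the limit with a mean of 3.40, was called higher in TrxR1/Gsr-null liver (0.94, adjusted p = 0.0410). All its WT values, 2.51 to 3.31, lay below the limit, so it entered the test only through its TrxR1/Gsr-null values. Krt19 leaned the same way, and Krt7, Sox9 and Cftr leaned the other way. The sum of 3 blood cell markers was higher without overlap, at 5.58 to 5.82 in TrxR1/Gsr-null livers and 4.36 to 5.49 in WT livers. Only S100a8 went that way, by 1.30 (adjusted p = 0.0541). The other 2, averaging below the limit, leaned lower. Hba-a1 averaged 2.12 in TrxR1/Gsr-null livers and 2.28 in WT livers, and Cd3e 2.31 in TrxR1/Gsr-null livers and 2.53 in WT livers. The part of these cell types in the results below was not tested. In whole liver, fewer cells of a type and less RNA per cell cannot be told apart.

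Among the receptors for foreign compounds, neither PXR nor CAR differed beyond its spread. Both Nr1i2 probe sets were dim, averaging 4.43 and 4.27 over the 8 arrays, beside a low-value limit of 3.38 for genes. The brighter one read 4.41, 4.59, 4.39 and 4.50 in the TrxR1/Gsr-null livers, against 4.90, 4.79, 4.10 and 3.76 in the WT livers. All 4 TrxR1/Gsr-null values fell inside the WT range. The difference was 0.08 ± 0.26 (SE), with a 95% interval from -0.49 to 0.66 and an adjusted p of 0.89 by limma. The second Nr1i2 probe set averaged 4.36 ± 0.11 in TrxR1/Gsr-null livers and 4.18 ± 0.18 in WT livers (SD, n = 4 each), a difference of 0.18 (adjusted p over probe sets 0.585). The sign of the first probe set turned when WT replicate 4 was left out (-0.12) or within replicates 1 and 2 alone (-0.34). Over the 8 arrays its 3 closest genes were Smc5, Atp9b and Nkiras2 (Pearson r 0.992, 0.990 and 0.988), picked from 7534 genes as a description.

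Nr1i3, which encodes CAR, read 8.99, 8.60, 8.19 and 8.34 in TrxR1/Gsr-null livers, against 7.80, 8.80, 8.36 and 8.33 in WT livers. The groups overlapped over most of their range. The difference was 0.21 ± 0.25 (SE; 95% interval -0.36 to 0.77; adjusted p = 0.681). Its closest genes over the 8 arrays were Hyou1, Zcchc10 and Ube2e2 (r 0.933, 0.899 and 0.870).

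For the AhR pair only one partner could be read. The brighter Ahr probe set gave 8.77, 8.60, 9.58 and 8.03 in TrxR1/Gsr-null livers, against 8.70, 8.74, 8.61 and 8.35 in WT livers. TrxR1/Gsr-null replicates 3 and 4 held the highest and the lowest value of all 8, so the spread was 0.64 (SD) in TrxR1/Gsr-null livers and 0.17 in WT livers. The difference was 0.14 ± 0.29 (SE; adjusted p = 0.824). It was -0.13 once TrxR1/Gsr-null replicate 3 was left out. The dim Ahr probe set averaged 3.59 ± 0.24 in TrxR1/Gsr-null livers and 3.35 ± 0.28 in WT livers (SD, n = 4 each), with replicate 3 highest in both groups. The closest genes of Ahr were Sdhb, Ntan1 and Zfp93 (r 0.954, 0.952 and 0.934).

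Arnt, the shared partner of AhR and of the hypoxia factors, was below the low-value limit in both of its probe sets and was not tested. The first read 2.71, 2.42, 2.69 and 2.84 in TrxR1/Gsr-null livers, against 2.64, 2.69, 2.43 and 2.55 in WT livers. The second read 2.10, 2.17, 2.04 and 2.02 in TrxR1/Gsr-null livers, against 2.24, 2.25, 2.33 and 3.03 in WT livers. No level or difference was drawn from values this low.

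Rxra, the common partner of PXR, CAR, LXR and FXR, had the smallest p-value of the 9 genes. Its bright probe set read 9.21, 9.32, 8.88 and 8.47 in TrxR1/Gsr-null livers, against 9.67, 9.60, 9.28 and 9.69 in WT livers. TrxR1/Gsr-null replicate 2 lay just above WT replicate 3, and the groups did not overlap otherwise. The difference was -0.59 ± 0.22 (SE; 95% interval -1.08 to -0.10), 1.51-fold, with an unadjusted p of 0.0226 and an adjusted p of 0.144. With any single array left out it lay from -0.71 to -0.43. With replicates 1 and 2 against 3 and 4 as a block the adjusted p was 0.0577. Within replicates 1 and 2 it was -0.37 and within replicates 3 and 4 it was -0.81. The other Rxra probe set read the other way, averaging 4.63 ± 0.64 in TrxR1/Gsr-null livers and 4.31 ± 0.43 in WT livers (SD, n = 4 each), a difference of 0.32 ± 0.33 (SE; adjusted p over probe sets 0.627). With the mean of both the gene's difference was -0.14. The closest genes of the bright probe set were Sardh, Aadat and Dhcr7 (r 0.971, 0.966 and 0.961).

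Of the lipid and bile acid sensors, FXR was lower in every TrxR1/Gsr-null liver than in any WT liver, and LXR alpha overlapped. Nr1h4, which encodes FXR, read 8.87, 9.08, 9.32 and 9.03 in TrxR1/Gsr-null livers, against 9.34, 9.48, 9.92 and 9.42 in WT livers. It was the single receptor gene of the 9 without overlap between the groups, and 16.6% of all genes tested showed none, 5.84% with the TrxR1/Gsr-null values below. The groups came close, at 9.32 in the highest TrxR1/Gsr-null liver and 9.34 in the lowest WT liver. The difference was -0.47 ± 0.19 (SE; 95% interval -0.89 to -0.04), 1.38-fold, with an unadjusted p of 0.0354 and an adjusted p of 0.185. It was -0.44 within replicates 1 and 2 and -0.50 within replicates 3 and 4. The hepatocyte marker sum also separated the groups in this direction, and its part in the Nr1h4 values was not tested. C1s1, Sult5a1 and Avpr1a followed Nr1h4 most closely over the 8 arrays (r 0.968, 0.964 and 0.953), and Avpr1a, a vasopressin receptor, was among the genes called lower.

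Nr1h3, which encodes LXR alpha and is used by hepatocytes and macrophages alike, read 5.76, 5.88, 6.28 and 5.20 in TrxR1/Gsr-null livers, against 6.77, 6.30, 5.92 and 5.65 in WT livers. WT replicates 1 and 2 were the highest of the 8 arrays, and WT replicates 3 and 4 sat among the TrxR1/Gsr-null values. The difference was -0.38 ± 0.29 (SE; 95% interval -1.03 to 0.27; adjusted p = 0.476). Within replicates 1 and 2 it was -0.72 (adjusted p = 0.100) and within replicates 3 and 4 it was -0.04 (adjusted p = 0.957). The closest genes were Rpn1, Gnmt and Il6st (r 0.972, 0.953 and 0.948).

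SHP was the receptor gene whose level varied most between livers. Nr0b2 read 8.20, 8.39, 7.72 and 7.60 in TrxR1/Gsr-null livers, against 7.62, 9.48, 8.15 and 6.17 in WT livers. The WT values spread over 3.31 log2 units and held both the highest and the lowest of the 8, while the TrxR1/Gsr-null values spread over 0.79. The difference of means was 0.12 ± 0.56 (SE), with a 95% interval from -1.13 to 1.38, the widest of the 9 genes, and an adjusted p of 0.931. Without WT replicate 4 it was -0.44 and without WT replicate 2 it was 0.66, so its sign rested on single arrays. The difference in spread between the groups was not tested. Its closest genes were Poll, Slc25a26 and Hsd17b4 (r 0.966, 0.949 and 0.945).

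Of the receptors that hold hepatocyte identity, HNF4 alpha gave probe sets that did not move alike. The brightest Hnf4a probe set read 10.30, 10.54, 11.11 and 11.01 in TrxR1/Gsr-null livers, against 10.91, 10.73, 11.34 and 11.34 in WT livers. Replicates 3 and 4 were above replicates 1 and 2 in both groups, and among replicates 1 and 2, as among 3 and 4, the TrxR1/Gsr-null values were the lower ones. The difference was -0.34 ± 0.24 (SE; adjusted p = 0.436), and adjusted p was 0.144 with that split as a block. A second probe set read 10.24, 10.16, 9.68 and 9.92 in TrxR1/Gsr-null livers, against 9.89, 9.96, 9.77 and 9.86 in WT livers. Here replicates 1 and 2 were the higher ones in both groups and the difference was 0.13 ± 0.18 (SE; adjusted p over probe sets 0.735). The third probe set above the filter averaged 7.67 ± 0.35 in TrxR1/Gsr-null livers and 7.94 ± 0.44 in WT livers (SD, n = 4 each), and the fourth lay below the filter, between 2.31 and 3.09. The mean of all 4 gave a difference of -0.04. Yipf1, Msl1 and Dlg1 followed the brightest probe set most closely (r 0.993, 0.988 and 0.988). The step between replicates 1 and 2 and replicates 3 and 4 is part of that likeness.

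LRH-1 differed little in any of its probe sets. The brightest Nr5a2 probe set read 7.59, 8.02, 8.69 and 8.09 in TrxR1/Gsr-null livers, against 7.90, 8.28, 8.62 and 8.03 in WT livers, and both groups had their lowest value in replicate 1 and their highest in replicate 3. The difference was -0.11 ± 0.26 (SE; 95% interval -0.68 to 0.46; adjusted p = 0.850). The other 2 probe sets above the filter differed by -0.21 and 0.09 (adjusted p over probe sets 0.672 and 0.863), and the fourth lay between 1.96 and 2.96, below the filter. Trappc5, Klc4 and Prkce were the closest genes (r 0.962, 0.922 and 0.920).

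**Figure D2:**
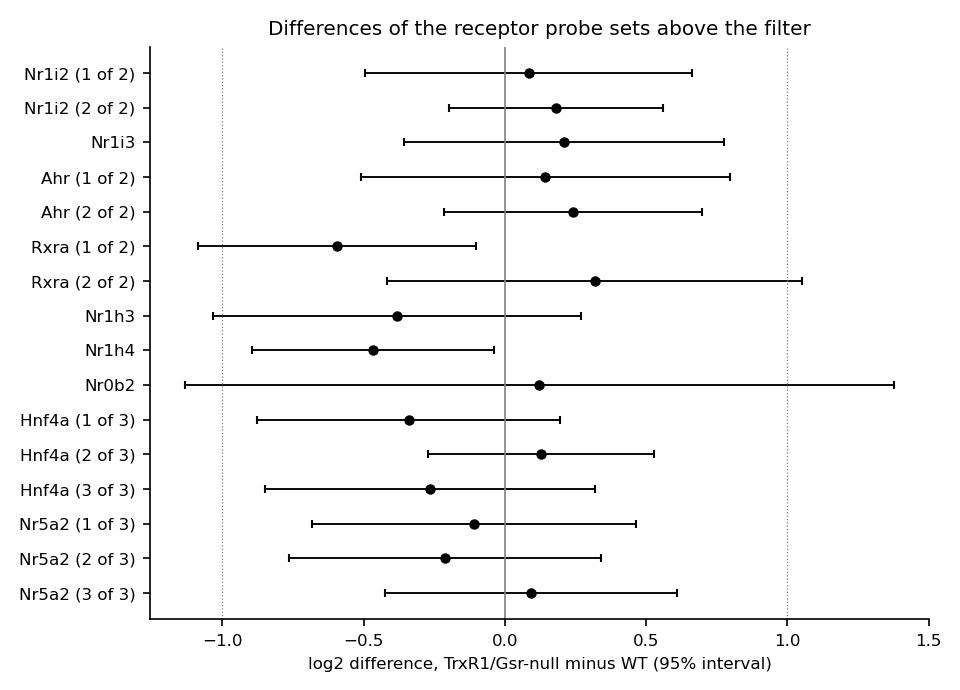
Log2 difference between 4 TrxR1/Gsr-null and 4 WT livers (horizontal axis, points) with its 95% interval from limma for the 16 receptor probe sets that passed the filter on low values, numbered from the brightest within a gene. Dotted lines stand at a 2-fold change; the intervals of the bright Rxra probe set and of Nr1h4 lie below 0, and the 2 Rxra probe sets point in opposite directions.

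The genes these receptors control were read next, from lists of textbook targets that overlap with each other. Together the 7 lists held 99 genes, of which 79 were tested. Of the 79, 6 were called higher and 11 lower, 21.5% in all, beside 6.62% of all genes tested and 0 of the 9 receptor genes. The lists were chosen with earlier results of these data known. These shares are therefore a description and cannot show that targets were called more often than other genes. The median difference of the 79 target genes was -0.32, beside 0.10 over all genes. Of the 79, 24 were positive and 55 negative, where 60.1% of all genes were positive. The count of lower calls was 7 without WT replicate 2 and 6 without WT replicate 3. It was 6 also on leaving out replicate 1 or replicate 2 of the TrxR1/Gsr-null livers, and it was 5 without both WT replicates 3 and 4. Receptor messages and target messages are different measures, and neither gives the ligand, the protein or its place in the cell.

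**Figure D3:**
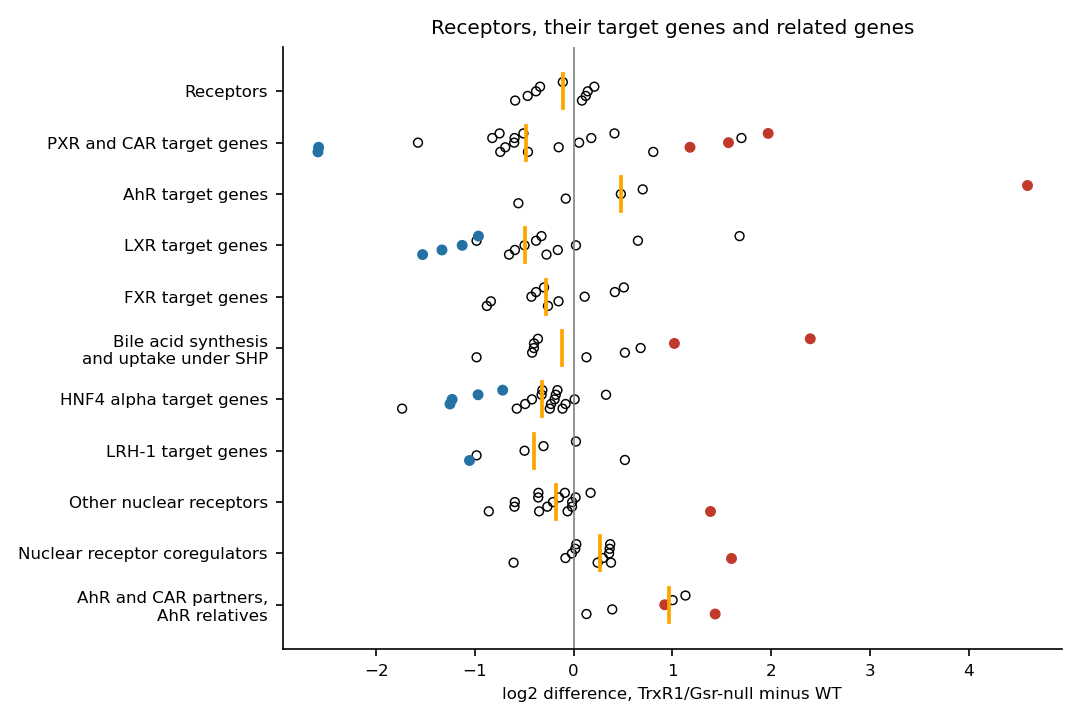
Log2 difference, TrxR1/Gsr-null minus WT (horizontal axis), of the 9 receptor genes tested and of each tested gene of the target and related lists (rows). Filled points were called higher (red) or lower (blue) by limma at an adjusted p below 0.05, open points were not, and an orange bar marks the median of the row. All receptor points are open, and the called genes of the PXR and CAR row lie on both sides of 0.

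Targets of PXR and CAR moved in both directions. Of 20 tested genes 3 were called higher and 2 lower, beside 4.47% higher and 2.15% lower of all genes. The median difference of the 20 was -0.49. Cyp2b10, the cytochrome P450 used as the standard reporter of CAR, read 6.51, 6.42, 6.60 and 5.61 in TrxR1/Gsr-null livers, against 8.38, 9.05, 8.52 and 9.56 in WT livers. The highest TrxR1/Gsr-null value was far below the lowest WT value, and the difference was -2.59 ± 0.31 (SE; adjusted p = 0.000931). Slco1a4, an uptake carrier for organic anions, read 7.07, 7.28, 7.30 and 7.69 in TrxR1/Gsr-null livers, against 9.92, 9.53, 9.46 and 10.77 in WT livers (difference -2.58 ± 0.29 SE; adjusted p = 0.000704). Leaving out any single array kept the calls of both genes and of the 3 called higher. Abcc3, an efflux pump of the basolateral membrane, averaged 11.63 ± 0.12 in TrxR1/Gsr-null livers and 10.06 ± 0.17 in WT livers, and Abcc2, the pump of the canalicular membrane, 11.32 ± 0.18 in TrxR1/Gsr-null livers and 10.14 ± 0.20 in WT livers (SD, n = 4 each). Both pumps are also known targets of Nrf2. Alas1, the first enzyme of heme synthesis, read 10.98, 10.74, 9.88 and 11.04 in TrxR1/Gsr-null livers, against 8.96, 8.10, 9.01 and 8.69 in WT livers, 3.92-fold higher. Within replicates 3 and 4 alone the calls of Alas1 and Abcc2 were lost (limma adjusted p = 0.0980 and 0.0522). Abcc2 was read by an _s_at probe set and was fitted in 20 of 21 alternatives.

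Most cytochromes of this list were not called. Cyp3a11, the classical PXR target in mice, read 11.34, 11.94, 13.15 and 12.99 in TrxR1/Gsr-null livers, against 12.74, 12.78, 13.33 and 13.57 in WT livers (difference -0.75, adjusted p = 0.294). Replicates 3 and 4 were higher than replicates 1 and 2 in both groups, and with that split as a block the adjusted p of Cyp3a11 was 0.0451. Within replicates 1 and 2 alone that of Cyp3a11 was 0.0456. Its relatives Cyp3a13 and Cyp3a16 differed by -0.74 and 1.70 (adjusted p = 0.342 and 0.0758). The number of PXR and CAR targets called lower was 4 without WT replicate 1, and 5 with that split as a block or within replicates 1 and 2 alone.

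Of the AhR targets, 5 of 12 could be tested and 1 was called, higher, beside 4.47% of all genes. That gene was Nqo1, a quinone reductase that Nrf2 also induces, at 10.18, 9.97, 10.29 and 10.00 in TrxR1/Gsr-null livers, against 6.26, 5.12, 4.97 and 5.73 in WT livers. Cyp1a2, the liver cytochrome that AhR controls, averaged 12.13 ± 0.28 in TrxR1/Gsr-null livers and 11.65 ± 0.54 in WT livers (SD, n = 4 each; adjusted p = 0.342). Cyp1a1, the most sensitive reporter of AhR, averaged 2.69 over all 8 arrays, below the low-value limit, as did Cyp1b1, Ahrr and Aldh3a1 with 2.55, 1.70 and 2.14.

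The calls among LXR targets were all lower. Of 15 tested genes 4 passed the test as lower and none as higher, beside 2.15% lower and 4.47% higher of all genes. The median was -0.50, and at an unadjusted p below 0.05 there were 8 of 15, beside 22.9% of all genes. Srebf1, the transcription factor that LXR induces to start lipogenesis, read 7.98, 8.35, 8.56 and 7.59 in TrxR1/Gsr-null livers, against 9.07, 9.72, 9.33 and 9.71 in WT livers. All TrxR1/Gsr-null values were below all WT values, with a difference of -1.33 ± 0.25 (SE; adjusted p = 0.0120, and 0.0631 without both WT replicates 3 and 4). Scd1, a fatty acid desaturase, differed by -1.13 (adjusted p = 0.00667), and leaving out any single array kept its call and that of Srebf1. The calls of the fatty acid synthase Fasn (-1.53, adjusted p = 0.0452) and the phospholipid acyltransferase Lpcat3 (-0.96, adjusted p = 0.0380) were lost, the first without any one array and the second without any one except TrxR1/Gsr-null replicate 4. The cholesterol exporters Abca1, Abcg1 and Abcg5 differed by -0.16, -0.27 and 0.02 (adjusted p = 0.667, 0.415 and 0.955). The desaturase Scd2, named after its values were seen, differed the other way, by 1.68 (adjusted p = 0.0952), with overlapping groups. Lower calls on the list numbered 2 or 3 with any single array left out, and without WT replicate 1 there were also 2 higher ones. There was 1 higher call with array weights, with the replicate number as a block, and with replicates 1 and 2 against 3 and 4 as a block.

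Targets of FXR gave no call by limma in the 10 genes tested, beside 6.62% of all genes. At an unadjusted p below 0.05 there were 2 of 10, beside 22.9% of all genes. The bile salt export pump Abcb11 read 9.77, 10.50, 11.12 and 10.89 in TrxR1/Gsr-null livers, against 11.29, 11.59, 11.38 and 11.54 in WT livers, without overlap (difference -0.88 ± 0.28 SE; adjusted p = 0.0914). It was called with array weights (adjusted p = 0.0154) and with replicates 1 and 2 against 3 and 4 as a block (adjusted p = 0.0396). Within replicates 1 and 2 alone it was called too (adjusted p = 0.0458). The other was Sdc1, a heparan sulfate proteoglycan, named here after its values were seen, which differed by -0.84 (adjusted p = 0.0720). It was called under 9 of 21 alternatives, with the replicate number as a block at an adjusted p of 0.0498. The phospholipid pump Abcb4 differed by 0.11 (adjusted p = 0.743).

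Among the genes of bile acid synthesis and uptake, which SHP restrains in part, 2 of 10 were called higher and none lower. Of all genes tested, 4.47% were called higher and 2.15% lower. Cyp7b1, a hydroxylase of the alternative pathway, averaged 10.36 ± 0.13 in TrxR1/Gsr-null livers and 7.96 ± 0.51 in WT livers (SD, n = 4 each; adjusted p = 0.000457). Acox2, which shortens the bile acid side chain in peroxisomes, differed by 1.02 (adjusted p = 0.0111, and 0.0606 without both WT replicates 3 and 4). Cyp7a1, the rate-limiting enzyme of the classical pathway and the best known gene repressed by SHP, read 5.83, 5.31, 8.58 and 6.38 in TrxR1/Gsr-null livers, against 7.76, 6.88, 7.29 and 8.10 in WT livers. TrxR1/Gsr-null replicate 3 was the highest of all 8 arrays and the other 3 were the lowest. The difference was -0.98 ± 0.61 (SE; adjusted p = 0.376). Leaving out TrxR1/Gsr-null replicate 3 gave -1.67 and a call (adjusted p = 0.0304), as did replicates 1 and 2 alone, with -1.75 (adjusted p = 0.0362). In WT livers the lowest Nr0b2 value and the highest Cyp7a1 value were both in replicate 4, and the highest Nr0b2 and the lowest Cyp7a1 both in replicate 2. In TrxR1/Gsr-null livers the highest Nr0b2 and the lowest Cyp7a1 were both in replicate 2, but the lowest Nr0b2 was in replicate 4 and the highest Cyp7a1 in replicate 3. Cyp8b1, the sterol hydroxylase that sets the kind of bile acid made, differed by 0.52 (adjusted p = 0.261).

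HNF4 alpha targets leaned to lower values, with small differences for the abundant plasma proteins. Of 19 tested genes 4 passed as lower and none as higher, beside 2.15% lower and 4.47% higher of all genes. Of the 19 differences 17 were negative and 2 positive, where 60.1% of all genes were positive. The median of the list was -0.32, beside 0.10 over all genes. F7, coagulation factor VII, read 7.97, 7.88, 8.39 and 7.84 in TrxR1/Gsr-null livers, against 9.19, 9.01, 9.35 and 9.55 in WT livers, and kept its call without any single array (difference -1.25 ± 0.20 SE; adjusted p = 0.00508). Pck1, which opens gluconeogenesis, differed by -1.23, the pyruvate kinase Pklr by -0.97 and the glycogen synthase Gys2 by -0.72 (adjusted p = 0.0270, 0.0308 and 0.0335). Those 3 calls depended on single arrays, and F7 alone was called on leaving out replicate 1 or 2 of the TrxR1/Gsr-null livers or replicate 3 of the WT livers. There were 2 calls without replicate 2 or 4 of the WT livers or replicate 4 of the TrxR1/Gsr-null livers. With the mean of its probe sets Pck1 differed by -0.61 and was not called (adjusted p = 0.0695). The apolipoproteins Apob, Apoa1 and Apoa2 differed by -0.18, -0.32 and -0.19 (adjusted p = 0.640, 0.397 and 0.552). The hepatocyte marker sum moved the same way and shares Apoa1 and Ttr with this list, and its part in these values was not tested. Of 6 tested LRH-1 targets 1, the HDL receptor Scarb1, was called lower (-1.06, adjusted p = 0.00939), beside 2.15% of all genes.

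**Figure D4:**
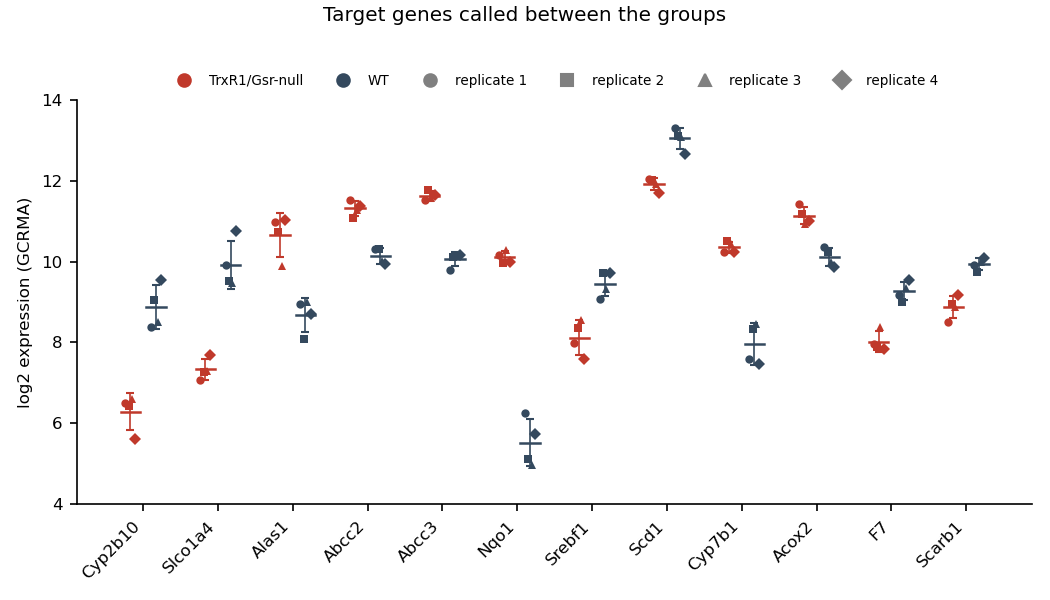
Log2 expression (vertical axis, from 4 to 14) of 12 called target genes in the 4 TrxR1/Gsr-null livers (red) and the 4 WT livers (dark blue), with replicates 1 to 4 as circle, square, triangle and diamond, bars at the group mean and whiskers of 1 SD. No gene shown has overlapping groups; Cyp2b10 and Slco1a4 are lower and Abcc2, Abcc3 and Alas1 higher in TrxR1/Gsr-null livers.

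Among the rest of the nuclear receptor family 1 gene was called. Of 41 other receptors on the list, 16 passed the filter and 1 was called, 6.25% beside 6.62% of all genes. It was Pparg, a lipid-storage receptor of adipose tissue, at 6.57, 6.10, 5.79 and 6.13 in TrxR1/Gsr-null livers, against 5.50, 4.38, 4.20 and 4.98 in WT livers (difference 1.38 ± 0.30 SE; adjusted p = 0.0226). The call was lost without WT replicate 2 or 3 or TrxR1/Gsr-null replicate 1, 2 or 4. Ppara, the fatty acid sensor of hepatocytes and another RXR partner, read 8.62, 9.46, 9.74 and 9.61 in TrxR1/Gsr-null livers, against 10.39, 10.19, 10.48 and 9.82 in WT livers, without overlap or call (adjusted p = 0.0887). Ppara was called lower after a further quantile normalization (adjusted p = 0.0498) and with array weights (adjusted p = 0.0197).

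Among 12 tested coregulators 1 was called, 8.33% beside 6.62% of all genes. It was the corepressor Nrip1, with 7.99, 7.12, 7.86 and 7.86 in TrxR1/Gsr-null livers, against 6.69, 6.87, 5.45 and 5.47 in WT livers. The 2 lowest values were those of WT replicates 3 and 4, the arrays with narrow distributions, and the difference of 1.59 was 0.93 and not called without them (adjusted p = 0.1). The call was also lost without WT replicate 3 or 4 or TrxR1/Gsr-null replicate 1, 3 or 4. The coactivator Ncoa1 differed by 0.03. Of 6 tested partners and relatives of AhR, 2 were called higher, beside 4.47% of all genes. All 6 differences were positive, beside 60.1% of all genes tested. Their median was 0.96, beside 0.10 over all genes. Some of the 6 were dim, and 2 are named here after their values were seen. Npas2 averaged 3.46 over the 8 arrays, near the low-value limit of 3.38. Arntl read 2.93 and 2.91 in WT replicates 3 and 4, below that limit. Hsp90aa1, the chaperone that holds AhR and CAR in the cytosol, read 11.84, 12.09, 12.26 and 12.41 in TrxR1/Gsr-null livers, against 10.59, 10.62, 10.91 and 10.75 in WT livers (difference 1.43 ± 0.18 SE; adjusted p = 0.00158). Hif1a, which pairs with Arnt when oxygen is low, differed by 0.92 (adjusted p = 0.0190), but by 0.30 with the mean of its probe sets, and its call was lost without TrxR1/Gsr-null replicate 1 or 4.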

How the data were processed

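The authors deposited 1 log2 value per probe set and array, made with GCRMA per the submitters' processing notes (version not given in the sources used here). That these are log2 values was judged from their range. Per the labels' protocols, RNA came from a RiboPure kit and was labelled with a MessageAmp kit.

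Of 22690 probe sets, the gene tests left out 64 controls, 691 paired with several genes and 1555 paired with none. RefSeq (GRCm38.p6) gave current symbols for 20364 matched gene identifiers, and the promoter windows. Each of 12393 genes was represented by its probe set with the highest mean, _x_at ones set aside where another existed. Genes in the lowest 40% by mean (log2 up to 3.38) were left out unless 4 arrays exceeded that limit, leaving 7534. The test was limma 3.58.1 under R 4.3.3 (lmFit, eBayes, two-sided, no covariates, Benjamini-Hochberg over all genes, called below 0.05). Receptor probe sets were fitted among the 13776 probe sets above the same filter (limit 3.03). Mean signal served to choose and number the probe sets of a gene; levels of different genes were not compared, since brightness depends on the probes.

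The receptors, target lists, marker lists and alternatives were chosen with earlier results of these data known, and no list was tested as a set. Named list genes were up to 4 called per direction and the first 3 written where uncalled, with the 3 genes most correlated with each receptor. The closing sections give the alternatives, which include scaling, filters, probe set choice and left-out arrays. The fit was tested on simulated data with 200 of 7534 genes changed.

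The titles give both groups replicates 1 to 4 from separate animals. Deviations from the group means gave correlations of 0.21 to 0.37 between arrays of the same number. A fit with a replicate block was therefore added, while the main test did not pair the arrays. Arrays of different number within replicates 1 and 2 or within 3 and 4 correlated at 0.20 to 0.40 too. Arrays of the same number were thus no more alike than these, and the values do not mark them as pairs. The split of replicates 1 and 2 against 3 and 4 was also used as a block. The labels name no batch. Each p-value sets a group difference against the spread among arrays of a group, which limma moderates over all genes. With 1 array per animal, that spread does not separate animals from arrays. In the main test it also holds the split of replicates 1 and 2 against 3 and 4.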

Additional observations from a re-analysis of the deposited data

Results flagged for a closer look

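Among 96 groups of 4 values checked for a sample far from the others, 5 had one, about what chance gives at 1 in 20. WT replicate 4 stood apart in the dim second Arnt probe set, at 3.03 against 2.24 to 2.33 in the other WT livers, and in the dimmest Nr5a2 probe set, at 2.96 against 2.17 to 2.22. Both probe sets are below the low-value limit. WT replicate 1 was low in Abcc3, at 9.80 against 10.12 to 10.17 in the other WT livers. WT replicate 2 was low in Gys2, at 9.15 against 9.50 to 9.57. TrxR1/Gsr-null replicate 2 was low in Nrip1, at 7.12 against 7.86 to 7.99 in the other TrxR1/Gsr-null livers. Abcc3 was called without WT replicate 1, Gys2 without WT replicate 2 and Nrip1 without TrxR1/Gsr-null replicate 2.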

How the results depend on the processing

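No receptor gene that was fitted was called higher or lower under any of 21 alternatives by limma. Nr1i2 was fitted in 20 of them, as it dropped out with the lowest 60% left out. The difference of Arnt, below the main filter, was not followed. Signs of the 9 genes followed were less firm, with 21 of 188 values turned. With a further quantile normalization Nr1i2 was -0.017 and Nr0b2 -0.042; with array weights Nr1i2 was -0.17, Ahr -0.053 and Nr0b2 -0.43; within replicates 1 and 2 Nr1i2 was -0.34, Ahr -0.036 and Nr0b2 -0.25; within replicates 3 and 4 Nr1i3 was -0.075 and Nr5a2 0.065. Without both WT replicates 3 and 4 Nr1i2 was -0.37, Nr0b2 -0.57 and Nr5a2 0.0065, and without _x_at and _s_at probe sets Hnf4a was 0.13. With 1 array left out, Nr1i2 ranged from -0.12 to 0.25, Ahr from -0.13 to 0.38, Nr0b2 from -0.44 to 0.66 and Nr5a2 from -0.31 to 0.059. Rxra, Nr1h3 and Nr1h4 were negative in every alternative run.

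Target genes called lower, 11, were 17 with array weights, 18 with replicates 1 and 2 against 3 and 4 as a block, 2 within replicates 3 and 4, 5 without both WT replicates 3 and 4 and 6 to 11 with 1 array left out. Those called higher, 6, were 3 within replicates 3 and 4 and 6 to 8 with 1 array left out. With the replicate block there were 7 higher and 14 lower. Among all genes, 337 were called higher and 162 lower. The counts were 578 and 428 with array weights, and 647 and 334 with replicates 1 and 2 against 3 and 4 as a block. They were 162 and 30 within replicates 3 and 4. Leaving out 1 array gave from 196 to 387 higher and from 75 to 134 lower. There were 187 higher without both WT replicates 3 and 4, and 271 lower after quantile normalization. That normalization moved the median of all genes from 0.10 to -0.01. The cause of these shifts was not tested. The replicate block changed the call of Sdc1, the 1 FXR target it called lower, and of no other single gene followed over the alternatives. It also called 1 LXR target higher, which was not among the genes so followed. Of 587 values of named list genes, 79 lost their call, 18 gained one and none turned sign. Dim probe sets such as those of Arnt and Nr1i2 limit what these arrays can show.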
